A study of Oncorhynchus mykiss with 12 samples.

Results

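The transcriptome of unstressed rainbow trout (Oncorhynchus mykiss) liver was described from the control RNA-seq libraries of a hypoxia study. These are 3 of the 12 libraries of the series, chosen by their treatment label, and all 42128 rows of the gene table were used. The series also holds 3 RNA-seq libraries of hypoxic liver, and small RNA libraries of both groups that were not analysed here. The control fish carry the wild-type phenotype label and no other treatment. The hypoxic fish, also wild type, were kept at 4.5 ± 0.1 mg/L dissolved oxygen for 1 month. The labels give no age, sex, strain or feeding state, and do not say whether replicates are separate fish, so the spread between libraries may be partly technical.

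The liver makes most of the proteins of blood plasma. Hepatocytes secrete albumin, transferrin, fibrinogen, complement, protease inhibitors and the apolipoproteins that carry lipid, and they also store glucose, make cholesterol and fatty acids, and break down amino acids. Ancestors of the salmonids duplicated their whole genome, so that many trout genes are present as pairs of copies.

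Levels are given in FPKM, the read count scaled to gene length and to library size, so that levels of different genes can be set side by side. A share is the FPKM of a gene divided by the summed FPKM of its library. Control libraries 1, 2 and 3 held 19376248, 22003492 and 23152833 counts. In total 14926 rows had a mean of at least 1 FPKM and are called detected below, while 9264 rows were at 0 in all 3 controls. Spearman's rho between pairs of controls across detected genes was 0.932 to 0.947, as a description, since genes are not independent replicates.

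The tissue label was set against cell type markers. Of 18 hepatocyte symbols 15 were in the table, and all 15 had a locus of at least 1 FPKM. Loci with these symbols summed to 71469, 70419 and 71817 FPKM, or 13.8% of the total. Red blood cell markers summed to 1152, 911 and 1246 FPKM, or 0.214%, nearly all of it globin. Fewer cells of a type and less RNA per cell cannot be told apart in such bulk tissue. The bile duct list was mixed. In it the keratin krt18 was at 108, 98.5 and 93.4 FPKM, and anxa4 and krt8 had means of 74.1 and 13.45 FPKM. KRT19 and SOX9 had means of 2.98 and 3.38 FPKM, and the chloride channel cftr was listed at 0, 0.023 and 0. The level of krt18 is therefore not read as a bile duct signal. Fibroblast and stellate markers summed to 279 to 359 FPKM, led by the collagen chain col1a1 at 79.3, 68.1 and 60.9 FPKM. Endothelial markers summed to 35.4 to 39.1 FPKM and macrophage markers to 50.4 to 57.4 FPKM. Of 8 T cell symbols 4 were in the table and 0 reached 1 FPKM, with cd3e at 0.390, 0.605 and 0.630. The B cell list reached 1 FPKM by blnk alone, a signalling adaptor at 25.7, 33.9 and 36.7 FPKM, with pax5 at 0. Pancreatic enzymes summed to 13.1 to 21.5 FPKM, led by trypsin, with carboxypeptidase cpa1 at 0. Skeletal muscle markers summed to 1.03 to 1.26 FPKM. Not all lists of other tissues were this low. Intestine markers summed to 83.7 to 90.2 FPKM, led by the aminopeptidase anpep, above the endothelial and macrophage sums in every control. The lists are unlike, so their sums do not rank cell types. In the table were 5 of 6 intestine symbols (20 loci), 11 of 11 endothelial (19 loci) and 5 of 10 macrophage symbols (8 loci). In that list vil1 and slc15a1 had means of 0.064 and 0.025 FPKM. Gonad markers summed to 56.7 to 100.8 FPKM and overlapped the macrophage sums. Nearly all of the gonad sum was the egg envelope gene ZP3 (mean 82.8 FPKM), of a kind that fish liver makes. The gonad markers ddx4, dazl, gdf9 and sycp3 had means of 0 to 0.133 FPKM. Kidney and adipose markers had mean sums of 19.6 and 19.8 FPKM.

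A small number of genes held most of the message. The 71 genes of at least 1000 FPKM held 50.88% of all FPKM, and 475 genes between 100 and 1000 FPKM held 29.3%. The 10 most abundant genes held 25.5%, 26.6% and 25.9% of the 3 libraries, a mean of 26.01% ± 0.575 (SD, n = 3). The number of genes needed to reach 50 percent was 66, 65 and 68. Of the 10 most abundant genes 9 fell in plasma protein families, grouped by product description, and of the 100 most abundant 62 did. Beside them were 6 ribosomal and 4 mitochondrially encoded genes. Another 18 fell in no family, and these also held secreted products such as spp2. The plasma families, taken by wording alone, in turn held a C type lectin receptor (100301666) and retinol-binding protein 2 (rbp2). Neither the 62 nor the family share given below is therefore plasma protein alone. In hypoxic liver 9 of these 10 genes were also in the top 10, and 86 of these 100 in the top 100.

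Lipid carriers stood first. The most abundant transcript was apoa2 (100301979), encoding apolipoprotein A-II of high density lipoprotein, at 33166, 36750.3 and 33193 FPKM, or 6.65% ± 0.334 of all FPKM. The main apolipoprotein A-I transcript apoa-i-1 (100135864), whose product is the core of the same particle, followed at 19586, 22696 and 23139 FPKM. A second apolipoprotein A-II locus (110537948) came next, at 14842, 19208 and 14797 FPKM. The first of these stood above the others in every control, while the second apolipoprotein A-II locus overlapped the level of transferrin.

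Below them came carriers and inhibitors. Transferrin-a (tfa, 100136298), the iron carrier of plasma, was at 17121, 15400.3 and 13012 FPKM. The serpin antiprot1 (100136095), described as like alpha-1-antiproteinase, was at 10623, 11332 and 12060.0 FPKM. Both albumin loci were in the top 10. The locus alb1 (100499622) was at 11339, 10480 and 11978 FPKM, and alb1 (110531464) at 8187, 7695 and 8560 FPKM. The ranges of antiprot1 and the first albumin locus overlapped, and tfa and the second albumin locus lay apart from them on either side. In the top 10, the gene whose product stays in the cell was fabp10a (110517089), the basic fatty acid binding protein of fish liver, at 5107, 5836 and 6857 FPKM.

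Clotting and complement completed the top 10. The fibrinogen gamma chain (FGG, 110534419) was at 4828, 5380 and 5889 FPKM, and the complement C3 locus c3 (110489027), the protein on which the complement pathways converge, at 5119, 4462 and 4736 FPKM. The next 20 genes ran from 4761 ± 129 FPKM for spp2 (100136098), a secreted phosphoprotein, down to 2514 ± 153 FPKM for APOB (110529382), the protein of low density and very low density lipoprotein. They held ahsg2, fetub and AMBP among the inhibitors, both hemopexins (hpxa and hpxb, which bind free heme), haptoglobin (HP, which binds free hemoglobin), the other fibrinogen chains FGA and FGB, and prothrombin (F2). Among those in no family were rnasel3, described as a ribonuclease, at 3881 ± 146 FPKM, leg1, a liver-enriched secreted protein of fish, at 3242 ± 179 FPKM, and wu:fj16a03 (100135970), described as toxin-1, at 2477, 3932 and 3485 FPKM.

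**Figure D1:**
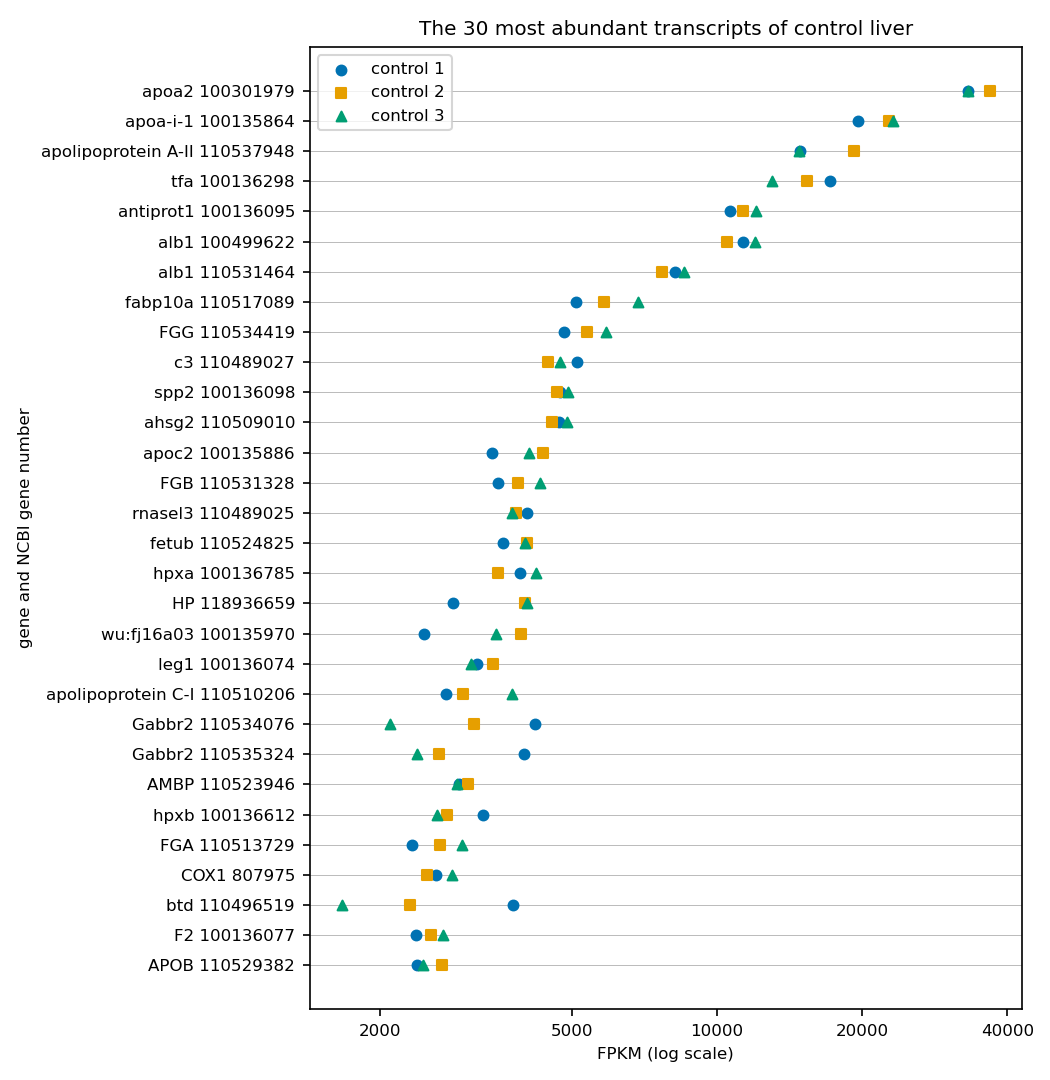
FPKM (log scale) of the 30 genes of highest mean level in control liver, with 1 point per control library. The highest gene, apoa2, lies between 33166 and 36750.3 FPKM, and btd and both loci named Gabbr2 spread widest, with control 1 highest.

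Of the 30 most abundant genes, 7 fell in no family, and 3 of these had the widest ranges of the 30. Biotinidase (btd, 110496519), which frees the vitamin biotin, was at 3787, 2313 and 1671 FPKM. A pair of loci that the file names Gabbr2, a receptor of the nervous system, was at 4200.1, 3136 and 2099 FPKM (110534076) and at 3974, 2650.2 and 2395 FPKM (110535324). The name is uncertain, since the length implied by their counts and FPKM is 940 and 1022 bases, and the reference table gives them no symbol of their own. The other loci of that name were at 0.023 FPKM and at 0. In all 3 of these abundant genes control 1 was highest.

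Grouped by product description, plasma protein families together (630 loci without ferritins and metallothioneins, 290 detected) took 48.5%, 49.1% and 48.6% of FPKM, a mean of 48.7% ± 0.335. Their share of raw counts, which gives long genes more weight, was 51.5% ± 0.572. The 3 libraries thus differed by less than 1 percentage point in this total. Rows that matched no family (35510, of which 12401 were detected) took 25.9% ± 1.22 of FPKM and 30.8% of raw counts. That was more than any single named family.

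The apolipoproteins (36 loci, 30 detected) formed the largest named family at 17.4% ± 1.34 of FPKM, and 6 loci made up 90 percent of it. After the A-I and A-II loci came apolipoprotein C-II (apoc2, an activator of lipoprotein lipase) at 3420.1, 4361 and 4081 FPKM and apolipoprotein C-I (110510206) at 2744, 2981 and 3757 FPKM. Control 1 was lowest in both. Its share of raw counts, which gives long genes more weight, was lower at 13.7%. That was still the largest of the named families, before complement with C1q-like proteins at 9.08%.

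Protease inhibitors with alpha-2-macroglobulins (55 loci, 29 detected) took 7.35% ± 0.230, led by antiprot1, ahsg2 (4713 ± 167 FPKM), fetub (3880 ± 239) and AMBP (2955 ± 82.4), the precursor of alpha-1-microglobulin and bikunin. Iron and metal proteins (50 loci, 36 detected) took 5.69% ± 0.313, of which tfa alone made 51.6%. After it came hpxa (3879 ± 343 FPKM), HP (118936659, 3625 ± 681) and hpxb (2892 ± 338). Albumin took 3.76% ± 0.252 from 2 loci. The serum carriers of vitamin A, selenium and thyroid hormone were all abundant, with rbp4 at 2427 ± 181 FPKM, selenoprotein P (110525974) at 1505 ± 84.3 and ttr at 1130 ± 13.3.

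Complement with C1q-like proteins (110 loci, 70 detected) took 5.37% ± 0.434. Beside c3, abundant members were c9 (2438 ± 164 FPKM), a subunit of the membrane attack pore, and a C1q-like protein (100136613) at 1929, 1477 and 1065 FPKM. Coagulation and fibrinolysis (93 loci, 58 detected) took 5.07% ± 0.299, and the 3 fibrinogen chains FGG, FGB (3902 ± 392 FPKM) and FGA (2653 ± 310) were followed by F2 (2551 ± 164). All 3 fibrinogen chains and F2 were lowest in control 1 and highest in control 3. Acute phase proteins and lectins (235 loci, 55 detected) took 2.18% ± 0.584. The pentraxin locus APCS, a pattern recognition protein, was at 2330.2, 2099.8 and 2165 FPKM, next to the antibacterial enzyme lysozyme (lys, 118964557) at 2876, 1261 and 1562 and lect2, a secreted chemotactic factor, at 2538, 1143 and 786 FPKM. The pentraxin was close in the 3 libraries, whereas lysozyme and lect2 were more than 2-fold apart.

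Among families that act inside the cell, cytosolic ribosomal proteins (192 loci, 187 detected) were highest at 10.2% ± 0.759 of FPKM. They are short, and their share of raw counts was 4.05%. The top locus, rps2 at 1705 ± 52.0 FPKM, made 3.22% of the family, so that no locus led it as tfa led the iron proteins. Mitochondrially encoded subunits (13 loci, all detected) took 1.39% ± 0.161, with COX1 at 2613, 2506 and 2831 FPKM. Translation factors took 1.37% ± 0.0494, led by the elongation factor eef1ao (100136004) at 1624 ± 91.0 FPKM.

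Families of metabolic enzymes took smaller shares. Amino acid and one-carbon metabolism (156 loci, 102 detected) took 1.38% ± 0.0661. Tyrosine breakdown was prominent in it, with hpda (4-hydroxyphenylpyruvate dioxygenase) at 1306 ± 107 FPKM and Hgd, a later step, at 334 ± 15.3. Between them stood ahcy-b, which clears S-adenosylhomocysteine, at 667 ± 40.1 FPKM, and tdo2a (110505124), the first enzyme of tryptophan breakdown, at 628 ± 110. Glycolysis and gluconeogenesis (126 loci, 65 detected) took 1.05% ± 0.0563, with the gapdh loci at 871 ± 34.8 (100135813) and at 839.5 ± 61.6 FPKM (100329212). Fatty acid oxidation with ketone body genes (44 loci, 39 detected) took 0.106% ± 0.00765, against 0.581% ± 0.123 for lipid synthesis, of which mid1ip1a (110508116), described as thyroid hormone responsive, made 48.4%.

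Cytochromes P450 (92 loci, 56 detected) took 0.653% ± 0.0264. The highest were CYP2D25, described as a vitamin D 25-hydroxylase, at 499 ± 16.5 FPKM, CYP4V2 at 403 ± 16.8, cyp2k5 at 291 ± 18.6 and CYP8B1, an enzyme of bile acid synthesis, at 203 ± 34.1. Antioxidant enzymes took 0.392% ± 0.0204, led by catalase (cat, 524 ± 24.7 FPKM) and peroxiredoxin (prdx1, 263 ± 8.80). Superoxide dismutase sod1, which the study followed up, was at 124, 138 and 114 FPKM.

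Smaller families of control liver were the ice-structuring proteins, so named in their descriptions only, and the egg proteins. A pair of type-4 ice-structuring protein loci was at 1498, 1990.1 and 1652 FPKM (110515164) and at 1184, 1522 and 1104 FPKM (100499581), both highest in control 2. Genes of egg yolk and egg envelope, which fish liver makes in response to estrogen, took 0.0573% ± 0.0118. The envelope protein zp2.3 was at 109, 120 and 132 FPKM, while the yolk precursor vtg1 (110513710) was at 1.13, 19.6 and 4.01 FPKM. Of 48 egg protein loci 6 were detected.

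**Figure D2:**
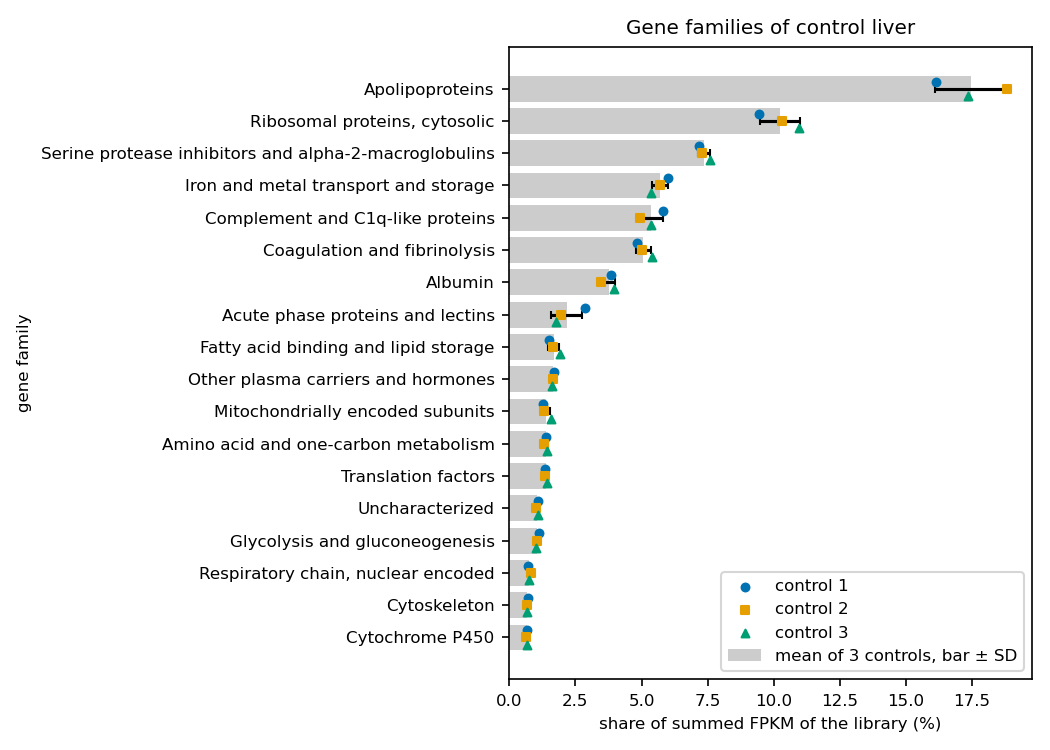
Share of summed FPKM (%) of the 18 largest families, with grey bars for the mean of 3 controls, lines for the SD and 1 point per library. Apolipoproteins lead at 17.4% ± 1.34, and acute phase proteins have a wide spread for their mean, 2.18% ± 0.584.

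Genes with no product name took a small share. The uncharacterized rows (2432, of which 327 were detected) took 1.07% ± 0.0336 of FPKM. The highest, LOC110529338, ranked 106th at 752, 623 and 728 FPKM, followed by si:ch1073-126c3.2 (110502557) at 530.5, 712 and 687 FPKM and LOC110505637 at 578, 469 and 616 FPKM. LOC118936612 was at 583, 402 and 369 FPKM. The next 6 (LOC118944824, LOC110493791, LOC110534449, LOC110528604, LOC110526684 and LOC110514348) had means of 83.3 to 321 FPKM.

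The duplicated genes differed in how evenly a pair was expressed. The albumin pair was nearly even, at a ratio of 1.38 ± 0.0188 (higher over lower locus, SD, n = 3). Apolipoprotein A-II, prothrombin and fabp10a had ratios of 2.13 ± 0.188, 2.94 ± 0.0940 and 4.21 ± 0.223. Others rested on a single locus, with fibrinogen gamma at 100.1 ± 22.5 and apolipoprotein A-I, between apoa-i-1 and apoa-i-2 (100135865), at 24.2 ± 3.12. In each of these pairs the same locus was higher in all 3 controls.

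Some pairs did not keep 1 order. The abundant loci named Gabbr2 had ratios of 1.06, 1.18 and 0.877 (110534076 over 110535324), and the main lysozyme locus over lyz2 had ratios of 1.82, 0.874 and 2.55. The apolipoprotein C-II pair kept its order but not its ratio. Its minor locus (110510221) was at 7.36, 28.4 and 45.9 FPKM, while apoc2 varied only from 3420.1 to 4361 FPKM. Reads can be split between near-identical copies, so single-copy values are uncertain. Among 21534 loci of at least 10 counts in every library, 61 loci in 16 groups had the same counts in all 6 libraries. Both minor fibrinogen beta loci (110536443 and 118959894) were among them, each at 253, 367 and 361 FPKM.

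**Figure D3:**
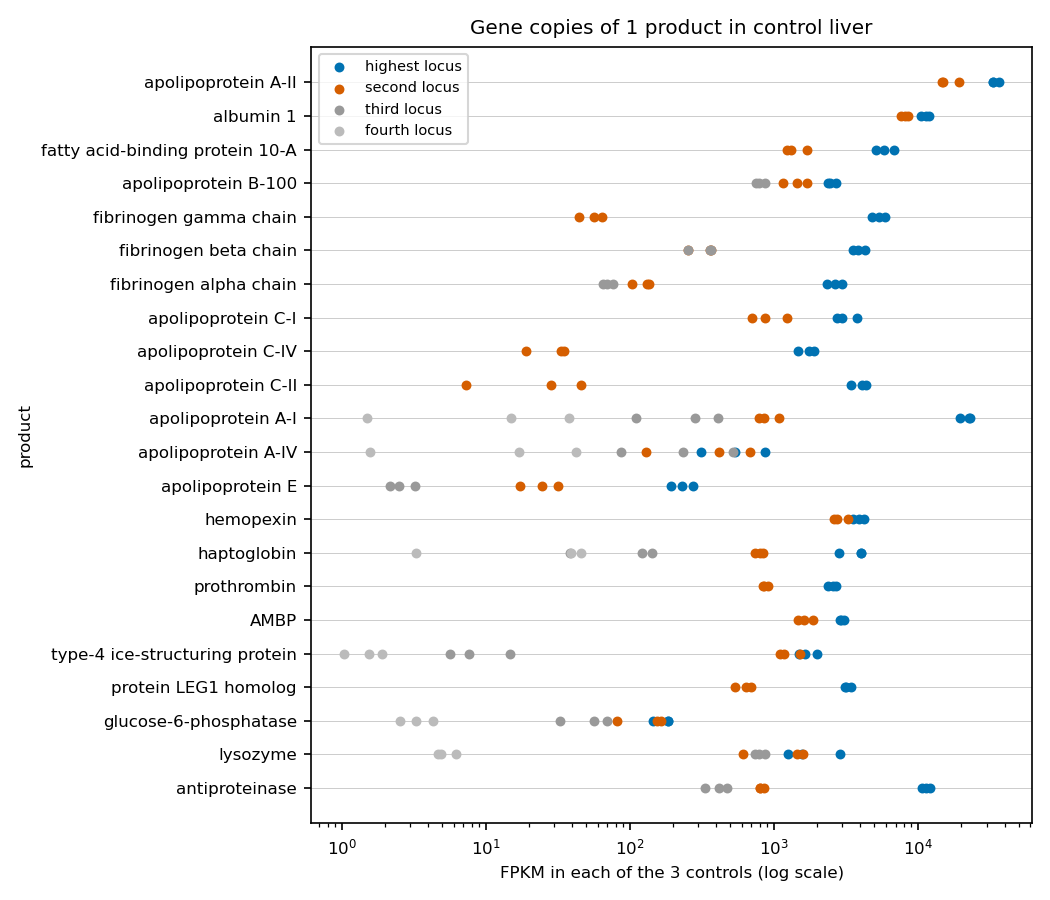
FPKM (log scale) of up to 4 loci of a product, the highest, in each of the 3 controls, with loci coloured by rank in the mean. Loci under 1 FPKM and the loci named Gabbr2 are left out. The albumin points lie close together (ratio 1.38), and those of fibrinogen gamma lie far apart (ratio 100.1).

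Several abundant genes lie beside one another in the gene order of the reference assembly USDA_OmykA_1.1. Among 164 genes of at least 500 FPKM, 11 pairs were direct neighbours. Apolipoproteins C-I (110537939), C-IV (apoc4), A-II (110537948) and C-II (apoc2) follow each other, at means of 937, 1705, 16282 and 3954 FPKM. On another chromosome apolipoprotein C-I (110510206, 3160.4 FPKM) is next to apoa2 (34370 FPKM). Levels within the first group were thus far apart, with apolipoprotein A-II highest. The 3 APOB loci are also neighbours, at 2514, 800.3 and 1433 FPKM, as are FGA with FGB and ahsg1 with fetub.

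Most genes were close among the controls, and a limited set was not. Of 2699 genes with a mean of at least 10 FPKM the median coefficient of variation was 11.2%, and 160 (5.93%) ranged over more than 2-fold. In hypoxic liver 74 of 2740 (2.70%) did, and edgeR's common biological coefficient of variation was 0.196 among controls and 0.142 among hypoxic libraries. The difference between the groups in this spread was not tested. With 2 controls in place of 3 the number was 63 without control 1, 94 without control 2 and 87 without control 3. Control 1 lay farthest from the median in 77 of the 160 genes, control 2 in 48 and control 3 in 35.

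Among the steadiest abundant genes were some of the ribosome, secretion and plasma, beside others such as A1CF and the estrogen receptor erb2. RPL7 (110536525) was at 481, 484 and 481 FPKM, rpl10 at 202, 204 and 203, and ssr1, a subunit of the complex through which secreted proteins enter the endoplasmic reticulum, at 349, 348 and 346. Protein C (proca), an anticoagulant, was at 664, 660.2 and 655 FPKM. The first 3 had fold ranges of 1.006 to 1.009 over the 3 libraries, and proca of 1.013. None of the 24 protease inhibitors, 50 translation factors or 85 nuclear respiratory chain genes of at least 10 FPKM ranged over more than 2-fold. Over all 2699 genes 5.93% did. A count of 0 does not mark a steady family by itself. None of 21 hemoglobin genes did either, at a median coefficient of variation of 19.9%, against 11.2% over all genes.

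Loci of glucose-6-phosphatase, which releases glucose from the hepatocyte, differed in order. The highest locus, G6PC (110499065), was at 145, 183 and 184 FPKM, and g6pc (100135885) at 81.9, 164 and 156 FPKM, both lowest in control 1. A lesser locus, G6PC (110491474), was at 69.4, 32.9 and 56.4, lowest in control 2.

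Many lipid synthesis genes had the same order. Of 30 genes of at least 10 FPKM, 8 ranged over more than 2-fold, and all 8 were highest in control 1. Of the full 30, 19 were highest in control 1 and 24 lowest in control 3, where over all 2699 genes 926 and 966 were. The cholesterol enzymes hmgcra, the controlled step of the pathway, and hmgcs1, the step before it, were at 83.3, 44.7 and 28.7 FPKM and at 37.8, 25.1 and 11.1 FPKM. Fatty acid synthase (FASN, 110499230) was at 24.1, 11.3 and 7.48 FPKM and Acaca, acetyl-CoA carboxylase, at 46.9, 35.4 and 21.8 FPKM. The most abundant members followed only in part, lowest in control 3 but highest in control 2. They were mid1ip1a at 1190.2, 2021 and 1158 FPKM and the delta 6-desaturase fd6d at 375, 495 and 310 FPKM. Outside the list, aacs, a cytosolic enzyme that activates acetoacetate for lipid synthesis, was at 78.5, 59.9 and 25.5 FPKM.

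Minor apolipoproteins showed another order. Of 25 apolipoprotein genes of at least 10 FPKM, 8 ranged over more than 2-fold and all 8 were lowest in control 1. Of the full 25, 21 were lowest in control 1 and 0 were highest there, where 1075 of the 2699 genes were lowest in it. The apolipoprotein A-IV loci were at 86.5, 525 and 233 FPKM (110537912), at 129, 683 and 414 FPKM (110510198) and at 314, 864 and 539 FPKM (110537898). Control 2 was highest in all 3. An apolipoprotein A-I locus (110510190) was at 111, 411 and 283 FPKM, and zgc:162608, of the same protein family, at 65.2, 135 and 208 FPKM. These 5 genes were at 31.6 to 149 FPKM in hypoxic liver. Each library there was below each control, except that hypoxia 3 was above control 1 for zgc:162608. Over all genes tested, 13.1% were lower without overlap. All 5 passed as lower (edgeR adjusted p = 0.00793 to 0.0395), where 3.39% of all genes did. The 5 were named for their wide range and level among controls after their values were seen. Those control values enter the test, so the share over all genes is no background for the 5. Of the rest of the 8, the apolipoprotein C-II locus 110510221 did not pass (edgeR adjusted p = 0.0659). The loci 110523359 and 110520383 passed as lower (edgeR adjusted p = 0.0183 and 0.0251). In control they were at 1.575, 42.35 and 17.04 FPKM and at 1.502, 38.1 and 14.97 FPKM. In hypoxia they were at 0.896 to 1.278 and at 0.813 to 1.992 FPKM, so that control 1 was near the hypoxic level. These loci were also named by their control values, which enter the test.

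Iron and metal genes had no single order. Of 25 such genes, 7 ranged over more than 2-fold and 5 of the 7 were lowest in control 1. Of the full 25, 11 were lowest in control 1 and 12 in control 3, where 1075 and 966 of the 2699 genes were. Ferritin FTH (110537947), an iron storage subunit, was at 52.8, 111 and 235 FPKM, and a minor haptoglobin HP (118964916) at 38.6, 122 and 142 FPKM. The iron hormone hepcidin (hamp1) had the opposite order, at 65.0, 41.1 and 15 FPKM.

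Several defence genes were high in control 1. Of 21 acute phase and lectin genes, 4 ranged over more than 2-fold (lect2, lys, lyz2 and leap-2b) and all 4 were highest in control 1. Control 1 was highest in 73 of all 160 genes of such a range. Of the full 21, 12 were highest in control 1, where 926 of the 2699 genes were. A differentially regulated trout protein (100136615) was at 463, 112 and 143 FPKM. The granulocyte markers summed to 25.6, 15.2 and 13.7 FPKM, with myeloperoxidase (mpo) at 19.3, 11.7 and 8.75 FPKM, also highest in control 1, and their part in these levels was not tested. Further genes of wide range were COL8A2 (110538203, described as a C1q-like protein) at 85.4, 47.7 and 26.9 FPKM, CYP24A1, which inactivates vitamin D, at 93.3, 30.6 and 39.6, and a saxitoxin and tetrodotoxin-binding protein (110488797) at 221, 73.0 and 137 FPKM.

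Ribosomal and mitochondrially encoded genes each had a common order. Of 180 ribosomal protein genes, 162 were lowest in control 1 and 140 highest in control 3. Of 11 mitochondrially encoded genes, 11 were highest in control 3 and 10 lowest in control 1. Over all 2699 genes, 904 were highest in control 3 and 1075 lowest in control 1. The median coefficient of variation of the ribosomal genes was 11.1%, near the 11.2% of all genes, and that of the mitochondrially encoded genes was above it. Genes of a family share their library, so these counts are a description of the 3 libraries.

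**Figure D4:**
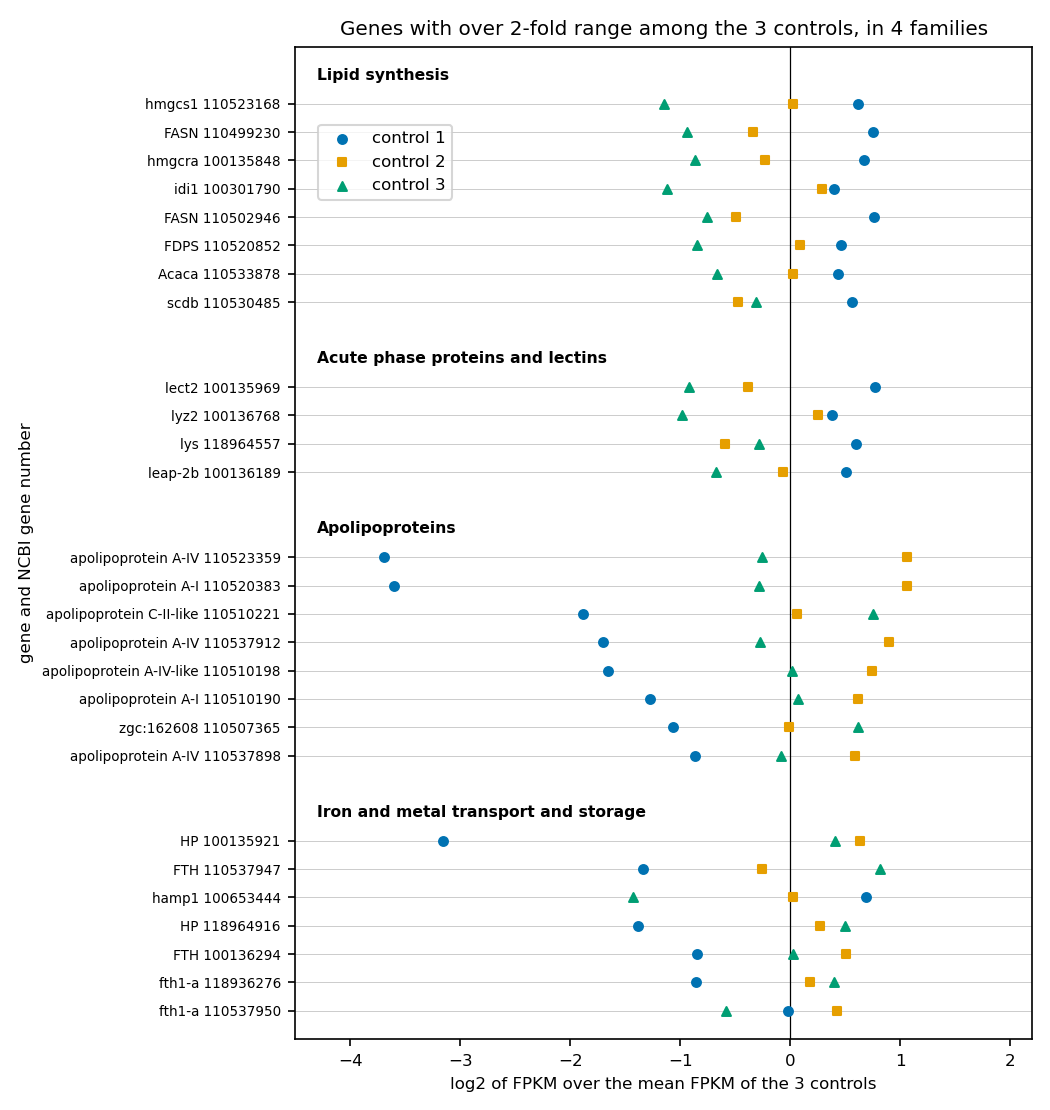
Log2 of FPKM over the mean of the 3 controls for the genes of 4 families that ranged over more than 2-fold, with 1 point per library. Control 1 lies at the right for lipid synthesis and acute phase genes and at the left for apolipoproteins.

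The control levels were then set against liver after 1 month of hypoxia, to ask how much of the abundant transcriptome differed. Of the 100 most abundant control genes, 2 were higher and 6 lower in hypoxia (edgeR, adjusted p under 0.05). Over all 19365 genes tested, 1398 passed (7.22%), of which 3.83% were higher and 3.39% lower, so the share among the abundant genes was near the background. Of the 10 most abundant genes 0 passed, and 31 of the 100 had an unadjusted p under 0.05, as did 4581 of all 19365. The FPKM of the groups did not overlap for 18 of the 100 on the higher side and 29 on the lower side, where 13.9% and 13.1% of all genes tested did not. The median log2 fold change was -0.11 over the 100 and -0.00459 over all genes. The 100 were taken by their control level, which enters these differences, so the choice itself favours the lower side. With the 100 taken by the mean over all 6 libraries, 5 were higher and 5 lower by the edgeR test.

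The clearest difference was in apoa-i-2 (100135865), the lesser apolipoprotein A-I copy, at 790.1, 1093 and 860.1 FPKM in control and 201, 189.6 and 209 FPKM in hypoxia. It fell by 2.22 on the log2 scale (SE 0.16, edgeR adjusted p = 0.000368), whereas the main copy apoa-i-1 had a log2 difference of -0.26 (adjusted p = 0.319). The lipid synthesis gene mid1ip1a was at 1190.2, 2021 and 1158 FPKM and at 327, 317 and 218 FPKM, and fell by 2.36 (SE 0.25, adjusted p = 0.00323). The C1q-like protein 100136613 rose, from 1929, 1477 and 1065 FPKM to 4299, 4495 and 3206 FPKM, by 1.42 (SE 0.21, adjusted p = 0.00793). These 3 genes did not overlap between the groups and passed without any 1 of the 6 libraries.

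The other 5 passed by less. The levels of lect2 were 2538, 1143 and 786 FPKM in control and 459, 491 and 743 FPKM in hypoxia, a fall of 1.40 (SE 0.34, adjusted p = 0.0335). The secreted phosphoprotein spp2 was at 4723, 4655 and 4905 FPKM in control and 3703, 3138 and 3229 FPKM in hypoxia, a fall of 0.53 (SE 0.13, adjusted p = 0.0349). Gabbr2 (110535324) rose by 0.64 (SE 0.17, adjusted p = 0.0467), from the control levels above to 4919, 4193 and 5138 FPKM. The second locus of alpha-1-microglobulin and bikunin, ambp (100136079), fell by 0.52 (SE 0.14, adjusted p = 0.0478) and gapdh (100135813), a glycolytic enzyme, by 0.46 (SE 0.12, adjusted p = 0.0489). Without 1 library, spp2, Gabbr2, ambp and gapdh passed only where control 1 was left out (adjusted p up to 0.116, 0.153, 0.202 and 0.180 otherwise), and lect2 only without control 1 or control 3 (up to 0.137 otherwise). Without control 1 the fall of lect2 was smaller, at 0.83 on the log2 scale, and lect2 did not pass by DESeq2 (adjusted p = 0.0751) or limma (0.0936 and 0.0986 with pseudocounts of 0.5 and 0.1).

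**Figure D5:**
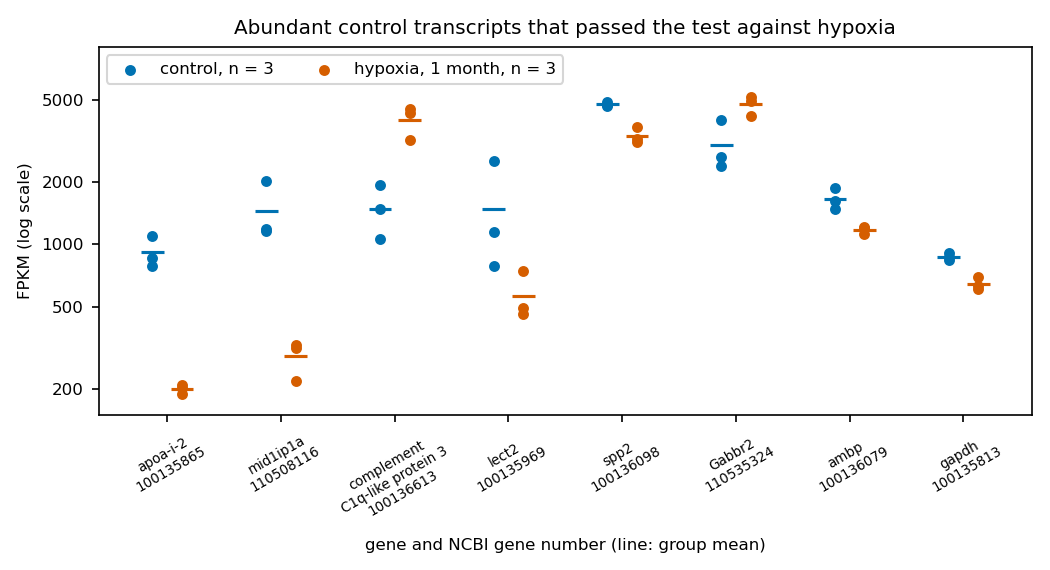
FPKM (log scale) of the 8 genes among the 100 most abundant that passed the test, with 1 point per library and a line at the mean of each group (n = 3). The groups do not overlap for these genes, and apoa-i-2, mid1ip1a and the C1q-like protein are farthest apart.

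Family shares were compared by an exact two-sided permutation test over libraries, in which 3 against 3 cannot give a p under 0.1. The test used the family lists as first written, before the corrections behind the shares above. In 15 of 33 families the groups did not overlap, 4 higher and 11 lower in hypoxia, where 27.0% of all single genes did not overlap. With the corrected lists 16 families did not. A family share is a sum over genes, so the rate of single genes is no background for it. The smallest adjusted p over families was 0.22, so that no family passed. Albumin was higher, at 3.83%, 3.48% and 3.96% of FPKM in control and 4.81%, 5.42% and 4.51% in hypoxia (exact p = 0.1), and neither albumin locus passed the gene test (log2 difference 0.41 and 0.39, adjusted p = 0.142 and 0.158). Hemoglobins were lower, at 0.366%, 0.295% and 0.416% against 0.201%, 0.193% and 0.146% (exact p = 0.1), and 18 of 22 loci tested passed as lower, where 3.39% of all genes did. The loci share their libraries, so the 18 are not independent results. The red blood cell marker list, nearly all of it globin, summed to 619, 594 and 480 FPKM in hypoxia, and its part in other results was not tested. Plasma protein families together took 48.1%, 51.0% and 48.1% in hypoxia and overlapped the controls.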

How the data were processed

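The RNA-seq table of 3 control and 3 hypoxia libraries, made from liver RNA, was used. Per the file headers, the authors deposited raw counts per gene and FPKM values for each library, with descriptions. Per the submitters' processing notes, the tools included TopHat2 2.1.1 and Bowtie2 2.2.8. The build, annotation and quantifier are not given in the sources, so no coordinates are printed. FPKM followed counts within a library, with 7.71% of 14051 genes off by over 10% and 0 of those of at least 500 FPKM. Of the rows, 41896 have an NCBI gene number, all found in the reference table, and 232 are assembled loci.

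Shares were computed from the deposited FPKM. Families were assigned by the wording of the deposited description, with 1 family per gene. The first lists were corrected after the descriptions were read. The members, lists and named genes (the 30 highest, up to 4 loci of a family, the 15 of widest range at a mean of at least 50 FPKM, the 10 highest without a product name, and abundant genes that passed the test) were chosen with earlier results of these data known. Genes of the varying families and the steadiest genes were named after their values were seen. Hypoxia was compared with control on the deposited counts by edgeR 4.0.16 (R 4.3.3), with TMM scaling, a quasi-likelihood test, two-sided p-values adjusted by Benjamini-Hochberg at 0.05, and a filter at a mean of 0.5 FPKM. Log2 fold changes are from this fit, not from the deposited files. Alternatives were RLE scaling, no filter, a replicate block, DESeq2 1.42.0, limma 3.58.1 on log2(FPKM + 0.5) or log2(FPKM + 0.1), and leaving out each library. The edgeR step was tested on simulated data.

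Counts of libraries within a group differed beyond sampling noise in every pair (chi-square over degrees of freedom 10.5 to 24.9), and each library was kept as 1 replicate. Some genes that the naming rule takes are not reported here. Promoter and protein sequences were not used here.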

Additional observations from a re-analysis of the deposited data

How the results depend on the processing

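No pairing of samples by replicate number was evident, though 3 libraries a group cannot exclude it. Deviations of same-numbered libraries from their group means correlated at -0.0552, 0.0636 and -0.0543, and those of other pairs at -0.0675 to 0.108. A replicate block gave 1046 genes changed in place of 1398 and 2 in place of 6 abundant genes lower. The 4 lost with the block were spp2, ambp, gapdh and lect2 (adjusted p = 0.056, 0.0657, 0.0763 and 0.065). The number of genes changed was 826 and 771 by limma with pseudocounts of 0.5 and 0.1, and 361 to 2186 with 1 library left out. Of the 100 abundant genes, 5 rather than 2 were higher by DESeq2 or with the 100 taken by the mean over all 6 libraries, 1 by limma with 0.1, and 1 to 3 with 1 library left out. Lower were 10 rather than 6 by DESeq2 and without the filter, 3 by limma with 0.1, and 2 to 12 with 1 library left out. Detected genes numbered 4861 and 2699 at 5 and 10 FPKM, and 22411 by at least 10 counts in every control. The plasma share was 51.5% of raw counts, 45.1% without the most abundant gene and 47.9% with the lists as first written, an alternative chosen after seeing the data. Genes over 2-fold numbered 1113 at a mean of 1 FPKM, 41 at 50 FPKM, and 63 to 94 with 1 control left out, where 2 libraries give a smaller range by construction. Of 16 family shares, 14 moved by more than 1 SD as raw counts, 11 without the most abundant gene, and 5 of 15 with the first lists. Other causes were not tested. With 3 libraries a group, depth is not the limit for abundant genes, but families cannot pass an exact test.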
